A study of Mus musculus with 2 samples.

Results

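Sodium and chloride transport across the lung lining was described through 8 genes of newborn mouse lung: Scnn1a, Scnn1b and Scnn1g, which encode the alpha, beta and gamma subunits of the epithelial sodium channel (ENaC), Prss8, Nedd4l, Atp1b1, Cftr and Slc12a2. They were chosen by gene symbol for the known functions of their products, with earlier results of these data known. Their identifiers were looked up in the GENCODE mouse annotation, and all 8 were found among the 43346 mouse genes in both tables. Total RNA longer than 200 nt was sequenced from lungs of the mouse strain B6NCrl at postnatal day 0, with no treatment, transgene or deletion named for any animal. Each of the 2 libraries held the 2 lungs of 1 newborn, pup 1 or pup 3 of the same pregnancy, and was made from 10 ng of RNA with spike-in RNAs added. The sex of the pups was not recorded, and both libraries carry the same donor identifier, so that their separation rests on the pup numbers. There was 1 group, so the data hold no comparison between conditions, and no prenatal or adult lung stands beside these values.

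Before birth the lung is filled with liquid that its epithelium secretes, with chloride as the driving ion. Slc12a2 (the cotransporter NKCC1) loads chloride into the cell together with sodium and potassium across the basolateral membrane, and chloride leaves through apical channels, of which Cftr is the best known. Around birth the epithelium turns to absorption: sodium enters the cell through apical ENaC, the sodium pump (Na,K-ATPase) expels it on the basolateral side, and water follows. Mice without the alpha subunit of ENaC die soon after birth because they do not clear this liquid. These roles are background, and RNA levels report neither channel activity nor the direction of transport.

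The libraries held 42189536 expected counts in pup 1 and 37026165 in pup 3 over the mouse genes. A count of 0 was therefore compatible with up to 3 counts, which is 0.0711 CPM (library-scaled counts) in pup 1 and 0.0810 CPM in pup 3, where the limit covers counting error only. The labelled tissue was checked with marker genes. All 6 markers of alveolar type 2 cells and all 6 of alveolar type 1 cells reached 1 TPM, a level scaled for transcript length and library total, in both pups, with summed levels of 80324 and 71803 TPM for type 2 and of 5016 and 5403 TPM for type 1. All 5 kidney tubule markers stayed under 1 TPM, and their sum was 0.08 TPM in pup 1 and 0.09 TPM in pup 3. Markers of other lung cells were plentiful, with airway secretory sums of 28815 and 30505 TPM, ciliated sums of 801 and 798 TPM, endothelial sums of 955 and 1030 TPM and fibroblast sums of 1410 and 1363 TPM. Red cell genes summed to 55417 TPM in pup 1 and 66405 TPM in pup 3. All 5 heart muscle markers also reached 1 TPM, with sums of 563 and 646 TPM, and neuron markers summed to 45.8 and 50.3 TPM, nearly all of it Stmn2. In whole lung RNA, fewer cells of a type and less RNA per cell cannot be told apart, and the share of any cell type in the values below was not tested.

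All 8 transport genes were expressed, over a range from 6.11 ± 0.721 TPM for Cftr to 354 ± 51.7 TPM for Atp1b1 (mean ± SD, n = 2 pups, as for every mean below). TPM divides the count by the effective transcript length, so that these levels can be set against each other. In both pups the order was Atp1b1, Prss8, Scnn1g, Scnn1a, Scnn1b, Slc12a2, Nedd4l and Cftr. Among all mouse genes by mean TPM, Atp1b1 ranked 391, Prss8 1128, Scnn1g 1287, Scnn1a 1439, Scnn1b 2155, Slc12a2 5188, Nedd4l 6964 and Cftr 10164. Of the neighbours in this order, Scnn1g and Scnn1a overlapped across the pups, and Prss8 and Scnn1g nearly met, with 125 TPM as the lower Prss8 value and 123 TPM as the higher Scnn1g value. The other neighbours were separated by more than their spread over the pups. Atp1b1, Prss8 and the ENaC subunits filled the upper places, and Slc12a2, Nedd4l and Cftr the lower ones. This order covers the 8 chosen genes only and does not rank absorption against secretion. The 8 genes together held 870 TPM in pup 1 and 757 TPM in pup 3.

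**Figure D1:**
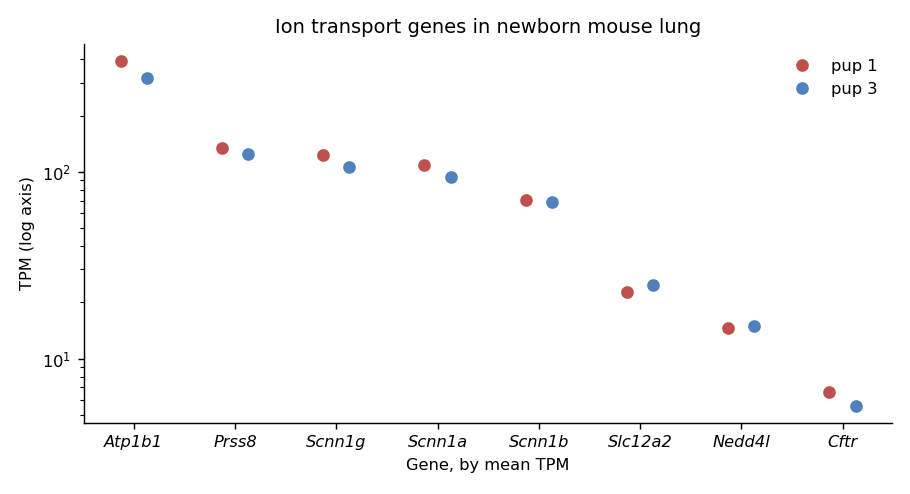
Level of each of the 8 transport genes in pup 1 and pup 3, in TPM on a log axis, with 1 point per pup. The genes run down in the same order in both pups, from Atp1b1 at 391 and 318 TPM to Cftr at 6.62 and 5.60 TPM.

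The 3 ENaC subunits were all well expressed, with gamma highest and beta lowest in each pup. Scnn1a had 108 TPM in pup 1 and 94.2 TPM in pup 3, a mean of 101 ± 10.0 TPM that rests on 11874 and 8778 expected counts. Scnn1b had 70.8 and 68.7 TPM, a mean of 69.7 ± 1.49 TPM from 5272 and 4352 counts. Scnn1g had 123 and 106 TPM, a mean of 114 ± 11.5 TPM from 11442 and 8445 counts. Beta therefore varied least between the pups and was the lowest subunit in both. The deposited TPM intervals, whose level is not stated and which lie around the posterior mean, ran in pup 1 from 105 to 109 TPM for Scnn1a, 67.6 to 71.4 TPM for Scnn1b and 118 to 123 TPM for Scnn1g. In neither pup did the intervals of any pair of subunits touch.

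Ratios inside each library set the subunits against each other without any scaling between pups. Scnn1a over Scnn1b was 0.61 in pup 1 and 0.46 in pup 3 on the log2 TPM scale, a mean of 0.54 ± 0.11 or 1.45-fold. Scnn1a over Scnn1g was −0.18 in both pups, with an SD of 0.00206, so that alpha stood at 0.885 of gamma. Scnn1b over Scnn1g was −0.79 in pup 1 and −0.63 in pup 3, a mean of −0.71 ± 0.11, which is 1.64-fold lower in beta. The alpha to gamma ratio was nearly identical in the pups, whereas both ratios with beta differed between them. As shares of the summed ENaC level, alpha held 35.9% in pup 1 and 35.0% in pup 3, beta 23.5% and 25.5%, and gamma 40.6% and 39.5%. A channel with equal numbers of each subunit would need equal protein, which RNA does not measure. With 2 libraries an exact sign-flip test cannot give a p below 0.5, so no p is printed for these ratios.

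**Figure D2:**
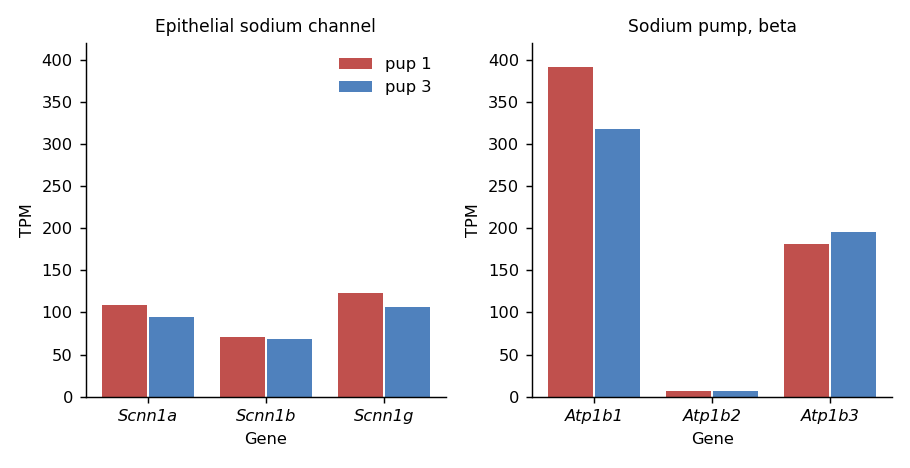
TPM in pup 1 and pup 3 of the ENaC subunits and the sodium pump beta subunits, 1 bar per pup on axes that start at 0. The ENaC bars lie between 68.7 and 123 TPM, and Atp1b1 is the highest of the beta subunits in both pups.

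Scnn1a lies on the plus strand at chr6:125320659-125344943, Scnn1g at chr7:121734479-121768475 and Scnn1b at chr7:121865038-121918514, all in mm10. The range of Scnn1b shares 39152 bases with Cog7 on the opposite strand, at 10.9 TPM in pup 1 and 15.4 TPM in pup 3. Scnn1g and Scnn1b are neighbours on the same strand, 96562 bases apart, with 1 gene and no protein-coding gene between them. Each subunit ends in a short stretch that Nedd4l is known to bind, the PY motif of proline, proline, any residue and tyrosine. It is shown because it ties the channel genes to the ligase described below, and it was read from the GENCODE M21 transcripts, 5′ to 3′ on the coding strand, with the 4 codons in capitals.
Scnn1a: gcccctCCACCTGCCTATgctacc
Scnn1b: actccaCCCCCCAACTATgactcc
Scnn1g: acaccaCCCCCCAGATACaatacc
The motif occupies chr6:125343996-125344007 in Scnn1a, chr7:121917985-121917996 in Scnn1b and chr7:121767469-121767480 in Scnn1g. It covers codons 671 to 674 of 700 in Scnn1a, 615 to 618 of 638 in Scnn1b and 630 to 633 of 655 in Scnn1g. In all 3 subunits the motif lies near the end of the protein, with 26, 20 and 22 codons after it.

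Promoter sequence was given in RefSeq on GRCm38.p6 for 4 of the 8 genes, each as 300 bases that run from 250 before the start of transcription to 50 after it. The set holds the highest and the lowest gene, Atp1b1 and Cftr, and the neighbouring subunits Scnn1g and Scnn1b, whose levels differed by 1.64-fold. Capitals mark every GC box, GGGCGG or its reverse complement, the element to which SP1 family factors bind, where overlapping matches run into each other.
Atp1b1: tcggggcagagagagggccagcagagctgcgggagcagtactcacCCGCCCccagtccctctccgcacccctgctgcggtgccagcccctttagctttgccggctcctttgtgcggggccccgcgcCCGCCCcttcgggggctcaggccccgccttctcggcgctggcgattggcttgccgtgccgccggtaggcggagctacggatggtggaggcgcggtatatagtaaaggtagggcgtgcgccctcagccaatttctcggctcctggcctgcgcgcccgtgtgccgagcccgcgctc
Cftr: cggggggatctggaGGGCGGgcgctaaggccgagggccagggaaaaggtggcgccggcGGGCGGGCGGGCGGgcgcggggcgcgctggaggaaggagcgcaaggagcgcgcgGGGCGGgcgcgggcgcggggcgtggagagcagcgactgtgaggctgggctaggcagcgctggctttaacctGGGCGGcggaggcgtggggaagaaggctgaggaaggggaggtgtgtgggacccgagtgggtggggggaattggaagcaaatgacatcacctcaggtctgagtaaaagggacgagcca
Scnn1g: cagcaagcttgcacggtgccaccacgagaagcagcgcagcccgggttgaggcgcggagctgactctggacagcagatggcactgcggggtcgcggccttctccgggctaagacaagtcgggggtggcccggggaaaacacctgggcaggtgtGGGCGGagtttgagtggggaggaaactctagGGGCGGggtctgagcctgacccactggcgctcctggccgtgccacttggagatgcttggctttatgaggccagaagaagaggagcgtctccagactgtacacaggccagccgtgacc
Scnn1b: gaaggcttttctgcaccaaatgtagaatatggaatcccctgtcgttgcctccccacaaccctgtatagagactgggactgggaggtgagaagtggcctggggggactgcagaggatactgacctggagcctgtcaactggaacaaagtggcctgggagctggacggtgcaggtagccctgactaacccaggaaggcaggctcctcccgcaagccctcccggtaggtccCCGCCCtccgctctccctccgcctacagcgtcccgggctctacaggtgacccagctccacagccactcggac
These windows are chr1:164458306-164458605 on the minus strand for Atp1b1, and on the plus strand chr6:18170437-18170736 for Cftr, chr7:121734229-121734528 for Scnn1g and chr7:121864788-121865087 for Scnn1b. GC content was 71.0% for Atp1b1, 71.3% for Cftr, 64.7% for Scnn1g and 61.7% for Scnn1b, against a median of 52.7% over all 32851 promoters of the same length. They held 31, 31, 18 and 10 CG pairs, against a median of 7. Atp1b1 had 2 GC boxes, Cftr 6, Scnn1g 2 and Scnn1b 1, and 35.7% of all promoters had at least 1. The genes with the highest and the lowest RNA level of the 8 were the most alike in GC and CG content. On either strand, none of the 4 held the exact letters TATAAA of a TATA box (in 13.6% of all promoters). Nor did any hold the cAMP response element TGACGTCA (1.79%), the full palindromic glucocorticoid receptor site (0.475%) or its shorter core (AGAACA, 19.0%). Only these patterns were searched for. Variants were not, such as tatatag in the Atp1b1 window and tgacatca in the Cftr window. A match or its absence describes the letters of these windows only.

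Prss8 encodes prostasin, a membrane-anchored serine protease that raises ENaC activity in cultured epithelia. It had 134 TPM in pup 1 and 125 TPM in pup 3, a mean of 129 ± 6.30 TPM from 7556 and 6001 expected counts. Prss8 therefore stood above every single ENaC subunit in both pups, and at 0.453 of the summed ENaC level. It lies on the minus strand at chr7:127925716-127930104 and has 1 transcript model in the tables. Its range shares 122 bases with Kat8, a histone acetyltransferase gene on the opposite strand, at 17.0 TPM in pup 1 and 16.8 TPM in pup 3. Expected counts of both genes were fractional, 7556.33 for Prss8 and 808.67 for Kat8 in pup 1, and 6000.76 and 680.24 in pup 3. In each pup the fractions of both genes make up a whole count. A division of reads between these opposite strands was not tested, and no statement on counting by strand is given in the sources used here.

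Of the 11 channel-activating proteases and their inhibitors, Prss8 included, 10 reached 1 TPM in both pups. Highest was Spint2, a Kunitz-type inhibitor of membrane serine proteases, at 358 TPM in pup 1 and 380 TPM in pup 3. Serpine2, another serine protease inhibitor, had 233 and 242 TPM, and Ctsb, the lysosomal protease cathepsin B, had 141 and 138 TPM. Both leading genes of the list were inhibitors, and Spint2 stood above Prss8 in each pup. St14, which encodes matriptase, a protease that acts together with prostasin, had 31.6 and 36.7 TPM. Prss8 exceeded it by 4.22-fold in pup 1 and 3.40-fold in pup 3. Furin, which cleaves ENaC on its way to the surface, had 24.0 and 21.7 TPM. Tmprss11e alone had no reads in either pup.

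Nedd4l encodes an E3 ubiquitin ligase that binds the PY motifs shown above and marks ENaC for removal from the cell surface. It was measured at 14.6 TPM in pup 1 and 14.9 TPM in pup 3, a mean of 14.7 ± 0.198 TPM from 3804 and 3293 counts, the smallest spread among the 8 genes. Its paralogue Nedd4 had 230 and 295 TPM. Nedd4l was 17.7-fold lower than Nedd4 on average, with log2 ratios of −3.98 in pup 1 and −4.31 in pup 3, and it held 5.96% and 4.79% of the sum of both. The ligase best known for ENaC was by far the scarcer of the pair. The gene lies at chr18:64887705-65217828 on the plus strand, with A330084C13Rik and AC102333.1 annotated in antisense, for which the tables gave no value.

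All 19 genes of ENaC turnover and hormone control, Nedd4l included, reached 1 TPM in both pups. The highest was Ywhae, which encodes a 14-3-3 protein, at 399 TPM in pup 1 and 441 TPM in pup 3. Tsc22d3, a glucocorticoid-induced gene whose product GILZ stimulates ENaC, had 334 and 209 TPM. Sgk1, the hormone-induced kinase that phosphorylates Nedd4l, had 76.4 and 115 TPM. These genes, each known to respond to corticosteroids, leaned in opposite directions between the pups, with log2 ratios of 0.77 for Tsc22d3 and −0.52 for Sgk1, neither of which reached 2-fold. The glucocorticoid receptor gene Nr3c1 had 84.5 and 101 TPM, whereas the mineralocorticoid receptor gene Nr3c2 had 1.35 and 1.93 TPM. Hsd11b1, whose enzyme regenerates active glucocorticoid, had 162 and 177 TPM, and Hsd11b2, whose enzyme inactivates it, had 1.62 and 2.52 TPM. In each of these pairs the gene tied to glucocorticoid action was far higher.

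The sodium pump is built of a catalytic alpha and a glycosylated beta subunit, often with a small FXYD protein. Atp1b1, the beta1 subunit, had 391 TPM in pup 1 and 318 TPM in pup 3, a mean of 354 ± 51.7 TPM from 31116 and 21493 counts. Among the other beta subunits Atp1b3 had 182 and 195 TPM, Atp1b2 7.12 and 6.62 TPM, and Atp1b4 0.02 and 0.04 TPM. Atp1b1 was the prevailing beta subunit, and Atp1b3 was the only other one above 10 TPM. Atp1b1 over Atp1b3 was 1.11 in pup 1 and 0.70 in pup 3 on the log2 TPM scale, a mean of 0.90 ± 0.28 or 1.87-fold.

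In shares, Atp1b1 made up 67.4% of beta subunit RNA in pup 1 and 61.2% in pup 3, and Atp1b3 31.3% and 37.5%, of sums of 580 and 519 TPM. Atp1b1 exceeded the summed ENaC level by 1.30-fold in pup 1 and 1.18-fold in pup 3. The FXYD genes summed to 382 and 338 TPM and were led by Fxyd5 at 169 and 140 TPM, with Fxyd1 (phospholemman) at 129 and 113 TPM. Fxyd2, the gamma subunit typical of kidney, had 0.99 and 1.30 TPM. Heart muscle markers were present in both libraries, as given above, and their part in the pump and FXYD values was not tested. Atp1b1 lies on the minus strand at chr1:164437109-164458355 and shares 617 bases with Nme7 on the opposite strand, at 15.6 and 16.8 TPM.

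Cftr, the cAMP-regulated chloride channel of airway and fetal lung, was the lowest of the 8 genes. It had 6.62 TPM in pup 1 and 5.60 TPM in pup 3, a mean of 6.11 ± 0.721 TPM from 1303 and 935 counts. Among protein-coding genes at 1 TPM or more, 25.4% were below it, against 97.3% below Atp1b1. Scnn1a exceeded it by 16.4-fold in pup 1 and 16.8-fold in pup 3, Scnn1g by 18.5-fold and 19.0-fold, and Atp1b1 by 59.0-fold and 56.7-fold. These gaps were nearly the same in the pups, although the level of Cftr itself moved. The gap between Slc12a2 and Cftr was not, at 3.44-fold in pup 1 and 4.42-fold in pup 3. Ionocytes are rare airway cells known for high Cftr. Their 5 markers summed to 7.77 and 10.4 TPM, and only Atp6v0d2, which other cell types also express, reached 1 TPM. Ascl3 was detected at 0.56 and 0.78 TPM (11 and 13 counts) and Atp6v1b1 at 0.36 and 0.42 TPM (21 and 21 counts). The defining Foxi1 and Bsnd had 0 counts in both pups. Cftr lies on the plus strand at chr6:18170687-18322768. It overlaps the antisense gene Gm15592 at 0.02 and 0.07 TPM and the pseudogene Gm15595 at 0.04 and 0.04 TPM.

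Of the 16 chloride channel and exchanger genes, Cftr included, 12 reached 1 TPM in both pups. Clic4, an intracellular channel-like protein, had 186 TPM in pup 1 and 181 TPM in pup 3, and Clic5, known from alveolar type 1 cells, had 72.9 and 107 TPM. Ano1, the calcium-activated chloride channel TMEM16A, had 60.1 and 67.7 TPM. Ano1 stood about an order of magnitude above Cftr in both pups. Under 1 TPM in both were Clca1 and Bsnd with no reads, Slc26a3 at 0 and 0.04 TPM, and Slc26a4 (pendrin) at 0 and 0.40 TPM. Slc26a4 had 0 counts in pup 1 and 33 in pup 3, under the minimum of 50 counts for a comparison. With a floor of 3 counts in place of the 0, pup 1 was 12.2-fold lower. That fold leaves out the counting error of pup 3 and is no lower bound.

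Slc12a2, the sodium, potassium and chloride cotransporter NKCC1, had 22.8 TPM in pup 1 and 24.8 TPM in pup 3, a mean of 23.8 ± 1.41 TPM from 4717 and 4367 counts. It was the only one of the 8 genes whose scaled count was lower in pup 1, and with spike-in scaling it was not (log2 ratio 0.11). Slc12a2 over Cftr was 1.78 in pup 1 and 2.15 in pup 3 on the log2 TPM scale, a mean of 1.96 ± 0.26 or 3.90-fold. This ratio spread between the pups nearly as much as Atp1b1 over Atp1b3. The chloride uptake gene was several-fold above the best known exit channel, and both were below every ENaC subunit. Slc12a2 lies on the plus strand at chr18:57878678-57946821 and has 1 transcript model.

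Among the 13 cation chloride cotransporters and their kinases, 8 reached 1 TPM in both pups. Wnk1, a kinase upstream of the cotransporters and also on the list of ENaC control, had 56.9 TPM in pup 1 and 76.3 TPM in pup 3. Slc12a4 (KCC1), which carries potassium and chloride outward, had 25.7 and 29.97 TPM, and Slc12a2 stood at 0.856 of it. Slc12a2 was the second of the cotransporters, and of the sodium-coupled Slc12a1, Slc12a2 and Slc12a3 the only one above 1 TPM. Under 1 TPM in both pups were the kidney cotransporters Slc12a1 (0.05 and 0.05 TPM) and Slc12a3 (0 and 0.01 TPM), the neuronal Slc12a5 (0.53 and 0.78 TPM), Slc12a8 (0.69 and 0.35 TPM) and Wnk3 (0.07 and 0.16 TPM).

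**Figure D3:**
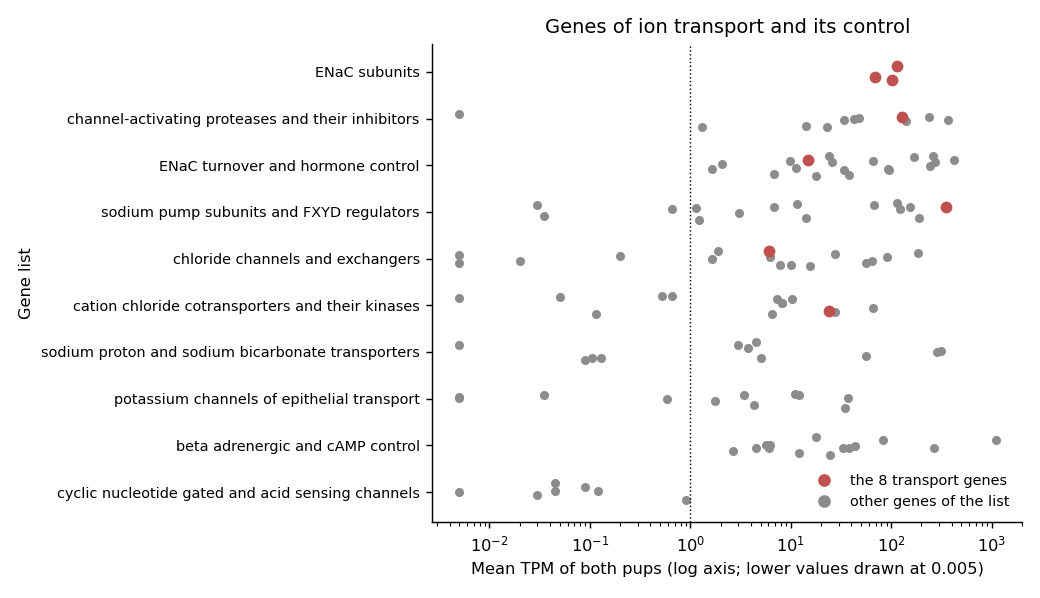
Mean TPM of both pups, on a log axis, for every gene of the 10 lists on ion transport and its control, with the 8 transport genes in red, the others in grey and lower values drawn at 0.005. The dotted line marks 1 TPM, which 90 of the 119 genes reached in both pups and none of the 7 cyclic nucleotide gated and acid sensing channels did.

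Further lists filled in the machinery around the 8 genes. Of 11 sodium proton exchange and sodium bicarbonate genes, 7 reached 1 TPM in both pups. Carbonic anhydrase Car2 had 315 TPM in pup 1 and 317 TPM in pup 3, and the scaffold genes Slc9a3r2 and Slc9a3r1 had 296 and 273 TPM and 50.03 and 63.0 TPM. The absorptive exchanger gene Slc9a3 had no reads, and Slc9a2 (0.09 and 0.12 TPM), Slc9a4 (0.02 and 0.16 TPM) and Slc4a10 (0.15 and 0.11 TPM) were also under 1 TPM. Both scaffolds, known to bind Cftr and Slc9a3, were present where Slc9a3 itself was not detected.

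All 14 genes of beta adrenergic and cAMP control reached 1 TPM in both pups. Gnas, the stimulatory G protein, had 1098 TPM in pup 1 and 1094 TPM in pup 3, and the protein kinase A subunit genes Prkar1a and Prkaca had 269 and 269 TPM and 83.0 and 82.5 TPM. All of these were nearly equal in the pups.

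Of 11 potassium channel genes of epithelial transport, 7 reached 1 TPM, led by Kcnk1 at 48.4 and 26.6 TPM, Kcne2 at 41.8 and 28.0 TPM and Kcnj15 at 14.2 and 10.1 TPM. These leading channels had log2 count ratios of pup 1 over pup 3 of 0.95, 0.66 and 0.56, each short of 2-fold. Kcnj1, Kcnj10, Kcnj16 and Kcnma1 were under 1 TPM. Cnga1, Cnga3, Asic1, Asic2, Asic3, Hcn2 and Hcn4, the other cation channels listed as possible sodium routes, were under 1 TPM in both pups, and the highest of them, Asic1, had 0.85 and 0.95 TPM. ENaC was the only sodium channel among those listed whose RNA passed 1 TPM.

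The pups were compared to show how far 2 libraries of the same group spread for these genes. With 1 library on each side there is no replicate check and no p-value. To be called, a gene needed a total of 50 counts or more, a 2-fold difference in scaled counts, and an exact 95% counting interval of the ratio without 1. By this rule 0 of the 8 transport genes were called, against 221 of 15790 genes tested in all, which is 1.40%, of which 104 were higher in pup 1 and 117 in pup 3. On a background this low, 0 of 8 does not set the transport genes apart from other genes. The intervals cover counting error only, since amplified reads are not independent molecules.

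Pup 1 was higher in 7 of the 8 genes, though by small amounts. It was higher in 8 with spike-in scaling, which adds 0.14 to every log2 ratio, or 6 with TPM + 1. Without spike-in scaling, pup 1 was higher in 51.0% of all genes tested and in 55.3% of those with 2000 or more counts. The log2 count ratio of pup 1 over pup 3 was 0.39 for Atp1b1, 0.33 for Cftr, 0.29 for Scnn1g and Scnn1a, 0.18 for Prss8, 0.13 for Scnn1b, 0.06 for Nedd4l and −0.04 for Slc12a2. The median of the 8 was 0.24, beside 0.01 over all genes tested and 0.03 over the 86 tested pathway genes outside the 8. As a fold, Atp1b1 was 1.31-fold higher (95% counting interval 1.28 to 1.33), Cftr 1.26-fold (1.16 to 1.37), and Scnn1g and Scnn1a 1.22-fold each (both 1.19 to 1.26). For Nedd4l (0.995 to 1.09) and Slc12a2 (0.935 to 1.02) the interval held 1. For the other 6 of the 8 genes it left out 1, but the share of all tested genes that did the same was not counted. These 6 are therefore not set apart from other genes. Spread between pups was judged against deeply counted genes. For the 7217 that had 2000 counts or more in sum, the central 95% lay between −0.35 and 0.37. Atp1b1 was just outside this range and the other 7 genes inside it. Several pathway genes named above lay further outside it, among them Kcnk1 (0.95), Tsc22d3 (0.77), Kcne2 (0.66), Kcnj15 (0.56) and Sgk1 (−0.52).

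**Figure D4:**
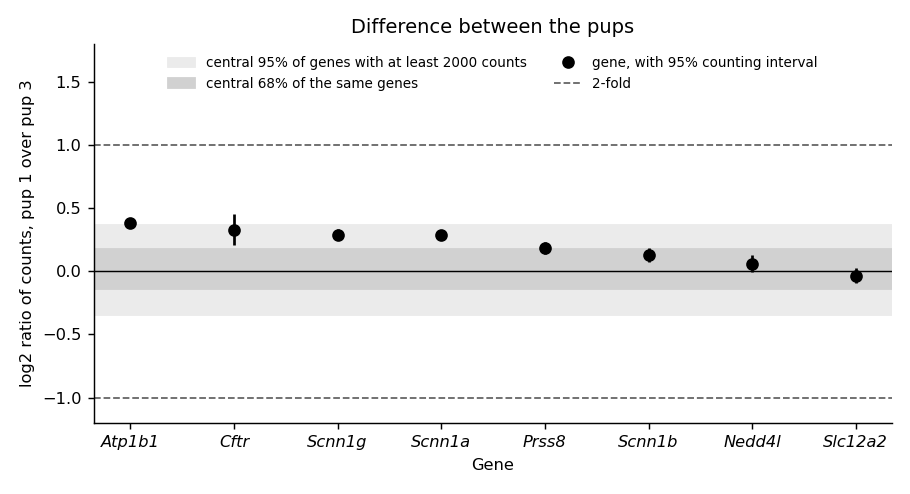
Log2 ratio of scaled counts, pup 1 over pup 3, for each of the 8 genes, with the 95% counting interval as a vertical line and grey bands for the central 68% and 95% of deeply counted genes. The genes run from Atp1b1 at 0.39 to Slc12a2 at −0.04, and all lie far inside the dashed 2-fold lines.

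Single markers of lung cell types had ratios between the same libraries as large as those of the transport genes other than Atp1b1. Alveolar type 2 markers had a median log2 ratio of 0.06 with 4 of 6 above 0, and ran from −0.30 for Lamp3 to 0.37 for Sftpb, a surfactant protein gene. Alveolar type 1 markers had a median of −0.03 with 2 of 6 above 0, and ran up to 0.32. The median was −0.17 for airway secretory markers, −0.23 for heart muscle markers, which ran from −0.38 to 0.91, and −0.18 for the red cell genes, with 0 of 4 above 0. The value of 0.91 was that of Nppa, from only 61 counts in pup 1 and 29 in pup 3. The part of these shifts in the ratios of the transport genes was not tested. In the remaining lists the tested genes were called in 0 cases, with medians of 0.13 for proteases, −0.09 for turnover and hormone control, 0.12 for the pump and FXYD genes, −0.01 for chloride channels, −0.01 for cotransporters, 0.06 for sodium proton and bicarbonate transport, 0.38 for potassium channels and 0.08 for cAMP control. Potassium channels, with 7 of 8 tested genes above 0, had the highest of these medians, and hormone control, with 13 of 19 below 0, the lowest.

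Transcript models added detail for 4 of the genes, since Scnn1b, Scnn1g, Slc12a2 and Prss8 have 1 model each in the tables. Isoform percent is the share of a gene's abundance given to a model. Scnn1a-201 held 90.3% in pup 1 and 89.9% in pup 3, Scnn1a-203 7.08% and 6.59%, and Scnn1a-206 2.67% and 3.50%, while the other 4 of its 7 models were at 0. In the M21 annotation these 3 differ in their first exons and encode 700, 674 and 593 codons. Atp1b1-201 held 99.3% and 99.1%, and Cftr-201 97.5% and 97.2%. By posterior isoform percent Cftr-201 held less, 88.7% and 85.1%. Cftr-202, a model annotated for nonsense-mediated decay, then held 4.57% and 6.26%. Each of these genes had a single prevailing coding model that was the same in both pups.

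Nedd4l differed from them in that its coding models shared the abundance, about equally in pup 1 and unequally in pup 3. Nedd4l-201 held 53.1% in pup 1 and 29.7% in pup 3, and Nedd4l-202 held 46.9% and 70.3%. The posterior isoform percents were 50.3% and 30.6% for Nedd4l-201 and 49.7% and 69.4% for Nedd4l-202. In TPM, Nedd4l-201 had 7.74 in pup 1 and 4.40 in pup 3, with deposited intervals of 5.73 to 8.76 and 3.25 to 5.76 that barely overlap. Nedd4l-202 had 6.84 and 10.4 TPM, with intervals of 5.51 to 8.56 and 8.81 to 11.4 that do not. The sum of both stayed at 14.6 and 14.9 TPM, so that the gene level was nearly equal where the split was not. The models are 8212 and 8163 bases long in the tables against 3671 and 7787 bases in M21, so the exons that tell them apart in the authors' annotation were not used here. Reads on the shared sequence were divided by the authors' estimate, and 1 library on each side gives no replicate check of this split.

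**Figure D5:**
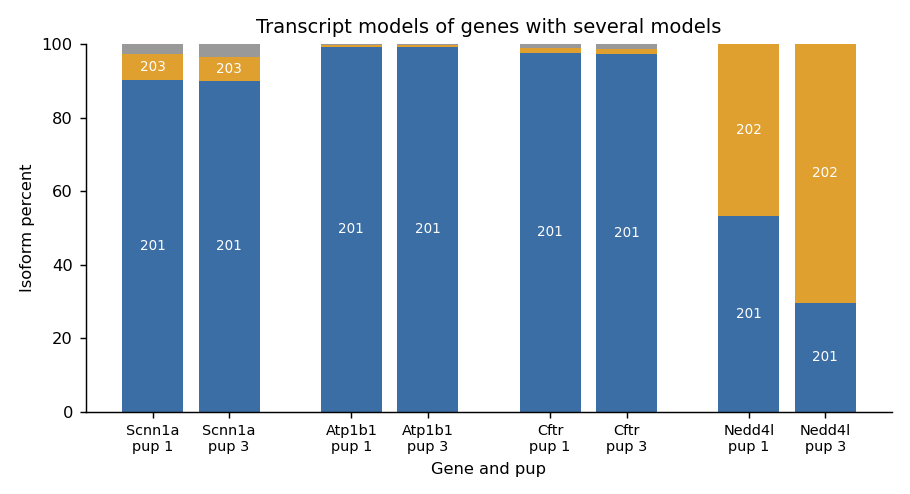
Isoform percent of the transcript models of Scnn1a, Atp1b1, Cftr and Nedd4l, 1 stacked bar per gene and pup, with the models of highest and second highest share in blue and gold (in order of their number) and the rest in grey. Scnn1a, Atp1b1 and Cftr have nearly equal bars in both pups, whereas Nedd4l-201 holds 53.1% in pup 1 and 29.7% in pup 3.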

How the data were processed

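Total RNA of 2 libraries, pup 1 and pup 3, was analysed from gene and transcript tables. The deposited expected counts are estimates that need not be whole, the deposited TPM values divide them by effective length, and isoform percent and intervals of posterior mean TPM stand beside them, per the file headers. The assembly mm10 and annotation M4 are named in text deposited with the libraries, whereas neither aligner nor counter is given in the sources used here. Symbols and coordinates came from GENCODE M21 on the same assembly, matched by identifier without version for 42462 of 43346 mouse genes. Only the RefSeq promoter table and M21 transcripts gave sequence.

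After rounding, library sizes for the counts came from the TMM method of edgeR 4.0.16 under R 4.3.3. The 2-fold rule used a prior count of 0.5 and a minimum of 50 counts. It was tried on simulated data with larger changes and higher counts only, so neither of these limits was tested there. Python 3.11.15 with pandas 2.3.3 and scipy 1.17.1 computed the rest. Spike-ins and features named only by a number were left out. Alternatives were DESeq2 1.42.0 size factors, spike-in scaling, posterior mean counts, TPM + 1, no minimum and a prior of 5. The genes and lists were chosen with earlier results of these data known. From each list the 3 genes highest by mean TPM, those called and those under 1 TPM in both pups were named, with all pump beta subunits. Some items are not reported here. Furin, Fxyd1, Fxyd2, Hsd11b1, Hsd11b2, Nr3c1, Nr3c2, Sgk1 and St14 were named after their values were seen.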

Additional observations from a re-analysis of the deposited data

How the results depend on the processing

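With both pups kept, 17 of 18 alternative values of the ratios between genes lay within 1 SD of the pups, and the exception, Scnn1a over Scnn1g from posterior mean TPM, was −0.17 in place of −0.18. None of the 8 genes was called between the pups in any of the 6 alternatives. Among pathway genes 1 was called with spike-in scaling (Kcnk1) and 1 with no count minimum (Slc26a4). Over all genes the rule called 85 with TPM + 1 and 701 of 24690 with no minimum, beside 221. Spike-in scaling called 161 higher in pup 1 and 82 higher in pup 3, beside 104 and 117, and moved the median of all genes to 0.15, putting all 8 transport genes above 0 (0.11 to 0.53, Slc12a2 at 0.11). With TPM + 1 the median was −0.06, Nedd4l was at −0.03, Slc12a2 at −0.12 and 6 of 8 were above 0. These scalings account for the 16 of 48 ratios between the pups that left their counting interval. Posterior values moved 3 of the 4 leading isoform shares by more than 1 SD: Atp1b1-201 to 99.0%, Cftr-201 to 86.9% and Scnn1a-201 to 89.6%. No paired analysis was possible because there is 1 group. Leaving out either pup leaves 1 library, whose values are those printed per pup. Depth limits Cftr, Slc26a4 and the other low genes most.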
